A study of Mus musculus with 16 samples.

Results

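The genes described here are 42 that encode the nuclear receptor PPARα (Ppara), the enzymes and carriers of fatty acid oxidation and ketone body formation, and other genes known as PPARα targets in liver. They were chosen by symbol from the 35275 genes of the deposited expression table, and all 42 were found. Liver RNA was sequenced from mice carrying normal Zfp36l1 (WT) and from mice lacking Zfp36l1 in the liver (LKO, a liver-specific knockout). Each genotype received a control diet or a diet containing ethanol (EtOH), which gave 4 groups of n = 4 libraries. The Zfp36l1 protein attaches to AU-rich elements in transcripts and speeds their decay. The labels used here give no sex, age, strain, Cre driver, duration of feeding or time since the last meal. Each library has an identifier of its own in its title, but no label used here says that the libraries came from separate animals, so the p-values measure the spread between libraries, which may in part be technical.

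Fatty acids that enter a hepatocyte are activated to acyl-CoA, passed into mitochondria by the carnitine shuttle and shortened in repeated rounds of beta-oxidation. Very-long-chain and branched-chain fatty acids are first shortened in peroxisomes. The acetyl-CoA can be turned into ketone bodies, which the liver exports during fasting, and PPARα is the fatty acid-activated receptor that raises transcription of many of these genes in that state.

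Levels are FPKM, fragment counts scaled to gene length and to the library's total, so that genes can be compared. Each difference is on the scale log2(FPKM + 1) and carries its standard error (SE) from limma, which tested 11298 genes. A gene was called at a Benjamini-Hochberg adjusted p under 0.05 over all genes tested. Zfp36l1 stood at 9.30 to 25.5 FPKM in the 8 WT libraries and at 0.572 to 1.76 FPKM in the 8 LKO libraries, and it fell by 2.89 on the log2 scale over both diets (adjusted p = 4.53e-06). Every library other than WT ethanol library 2 held at least 19069863 reads in genes, against 9888245 in WT ethanol library 2. In that library 22.5% of reads came from the mitochondrial genome, against 3.64% to 6.97% in the others, and the tests are therefore given with and without it. Within groups, the first principal component, with 39.96% of the variance after WT ethanol library 2 was left out, set libraries 1 and 2 of each group apart from libraries 3 and 4. The labels name no batch for this split. Fold changes within each side are given beside the results. They are parts of the same differences that were tested, so a shared sign is not separate support. Where the groups do not overlap, the sign on each side is fixed. The ethanol arm of WT on the side of libraries 1 and 2 is library 1 alone when library 2 is left out, and both values are printed, each with no test. Beside them stands the value from a fit that left out WT ethanol library 2 and had a term for the side (the side-term fit) where that fit changed a call. The side was taken from these same expression values, so the p-values of the side-term fit may be too small. Of all genes, the side-term fit called 19.7% for ethanol in WT, 10.7% in LKO and 32.6% over both genotypes, and of the 42 genes it called 12, 10 and 19. The 7 hepatocyte markers summed to 42344 to 72755 FPKM over all libraries, and adipocyte and muscle markers summed to at most 0.521 and 3.15 FPKM.

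The 42 genes spanned about 3 orders of magnitude in level. Over the 15 libraries other than WT ethanol library 2, Fabp1 had the highest mean, 6208 FPKM, followed by Acaa2 at 619, Acaa1b at 511, Cyp4a14 at 428 and Etfb at 409.9 FPKM. Pdk4 had the lowest mean, 6.89 FPKM, below Ucp2 at 11.0 and Crat at 14.3 FPKM. Among the 12 genes of the mitochondrial spiral, the highest of the 15 libraries was between 1.53 times the lowest, for Acads, and 2.83 times, for Eci2. Wider spans were those of Acot2 at 31.1 times and Pdk4 at 25.2 times, and Acot1 ran from 9.83 to 157 FPKM. In the 4 WT control libraries alone, the coefficient of variation was 127% for Pdk4 and 105% for Acot1, against 7.25% for Acaa2.

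**Figure D1:**
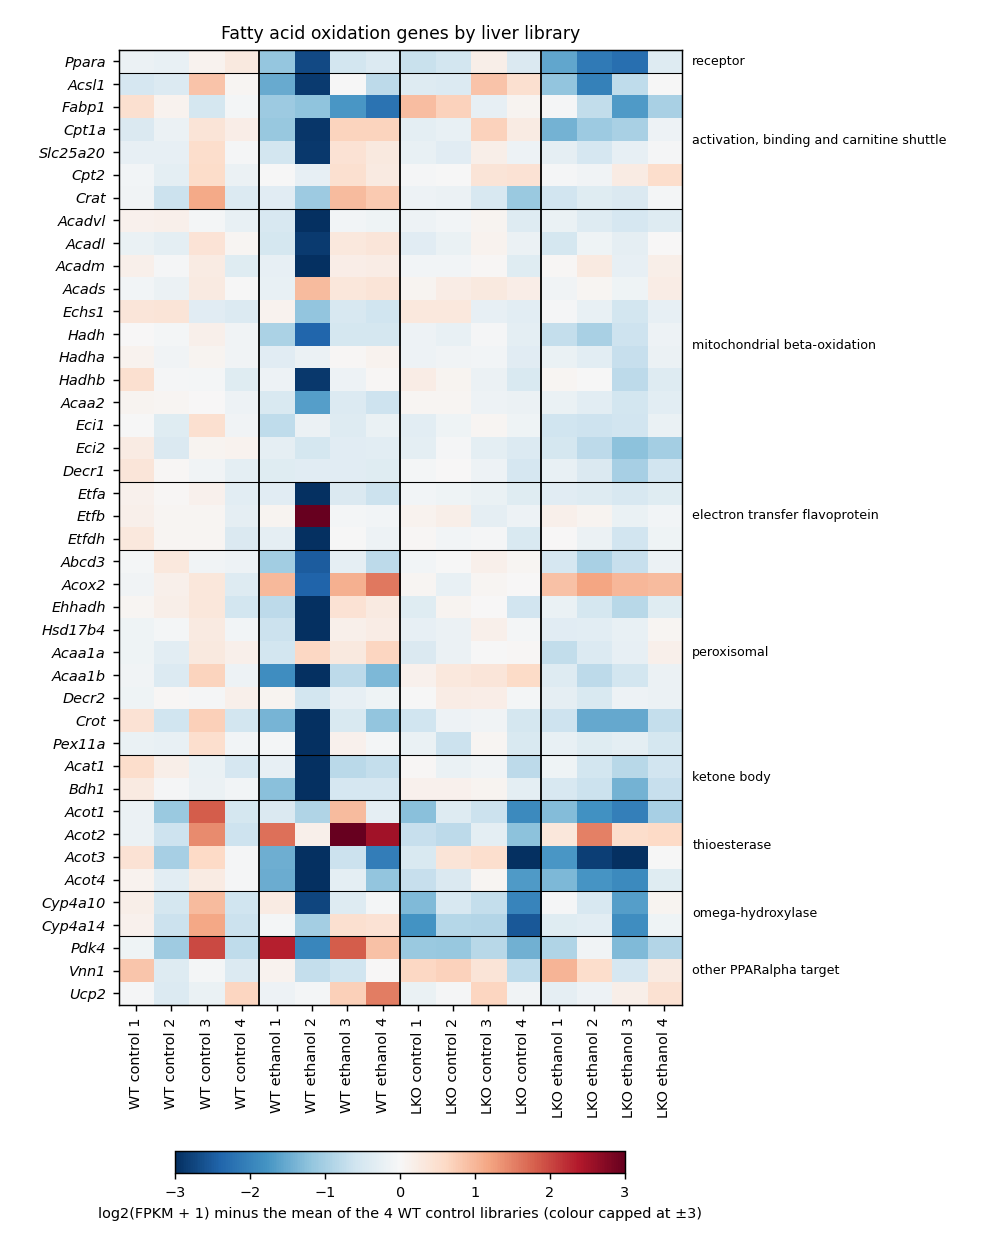
Level of each of the 42 genes (rows, grouped by role) in each of the 16 liver libraries (columns), as log2(FPKM + 1) minus the mean of the 4 WT control libraries, with red above and blue below that mean and colours capped at 3 units. WT ethanol library 2 is the darkest column, with a median of -2.52 over the genes, and WT control library 3 is the reddest of the control columns, with a median of 0.24.

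WT ethanol library 2 lay far from the other libraries for many of these genes. It held the lowest value of all 16 libraries for 26 of the 42 genes, or 61.9%, against 52.3% of all genes tested, and the highest for Acads and Etfb. The median ratio of its value to the median of the other 15 libraries was 0.197 for the 42 genes and 0.539 for all genes tested. Acadvl, the first dehydrogenase of long-chain beta-oxidation, was at 2.19 FPKM there and at 69.8 to 111 FPKM in the other 15. Etfb, a subunit of the flavoprotein that takes electrons from those dehydrogenases, was at 3296 FPKM there and at 341 to 466 FPKM elsewhere. With this library the median log2 fold change of the 42 genes on ethanol in WT was -0.70, and without it -0.09. The median of all genes tested moved from -0.02 to 0.17 on the same change. Markers of other cells stood apart in this library too. Cholangiocyte markers summed to 74.98 FPKM there and to at most 28.5 FPKM elsewhere. Its sums were the lowest of all libraries for periportal markers (459 FPKM, against at least 1189 elsewhere), sinusoidal endothelium (15.6 against 36.1) and stellate cells (18.03 against 39.2). Their part in the values of the 42 genes was not tested.

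WT control library 3 stood at the other end. Among the 16 libraries it held the highest value of 16 of the 42 genes, including Acot1, Cyp4a10 and Cyp4a14. Pdk4 was at 21.7 FPKM in this library and at 1.73 to 4.23 FPKM in the other 3 WT control libraries. Acot1 was at 157 FPKM in it and at 19.9 to 38.6 FPKM in the other 3. Values without this library are given where a call depends on it.

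On the ethanol diet, a minority of the 42 genes changed, and most of those were lower. In WT, 2 of 42 passed the test, Fabp1 and Acaa1b, both lower. Over all genes tested 4.18% were called, 2.58% higher and 1.59% lower. With WT ethanol library 2 left out, 5 of 42 passed: Fabp1, Acaa1b and Hadh were lower, and Acot2 and Acox2 higher. The background then was 9.48% of genes called, 7.23% higher and 2.25% lower. In LKO, none of the 42 passed, against 0.425% of all genes, and 4 of 42 had an unadjusted p under 0.05, or 9.52%, against 9.19% of all genes. With the spread estimated without WT ethanol library 2, 13 of 42 had an unadjusted p under 0.05, or 31.0%, against 19.0% of all genes. A limma-voom fit on the whole reads behind the FPKM values also called 0 there. With the spread estimated without WT ethanol library 2, Acox2 passed in LKO, higher, against 3.62% of all genes called.

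Over both genotypes together, 6 of the 42 passed, against 7.78% of all genes, of which 4.59% were higher and 3.19% lower. Acot2 rose, and Fabp1, Acaa1b, Ppara, Bdh1 and Abcd3 fell. When WT ethanol library 2 was omitted, the count was 13 of 42, 2 higher and 11 lower, against 20.5% of all genes, 14.8% higher and 5.70% lower. Those 13 were the same 6 with Acox2 higher and with Hadh, Crot, Acaa2, Eci2, Etfa and Acot4 lower. The median over both genotypes was -0.41 for the 42 genes and 0.02 for all genes tested, and without that library -0.18 and 0.11. Scaling moved the split of calls. In WT, quantile normalization called 7 of the 42, 1 higher and 6 lower, against 8.25% of all genes, 4.16% higher and 4.09% lower. Median of ratios called 9 in WT, 1 higher and 8 lower, against 6.48%, 2.72% higher and 3.76% lower. Over both genotypes, scaling to equal sums of FPKM called 2, 1 in each direction, against 4.73%, 2.50% higher and 2.22% lower.

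**Figure D2:**
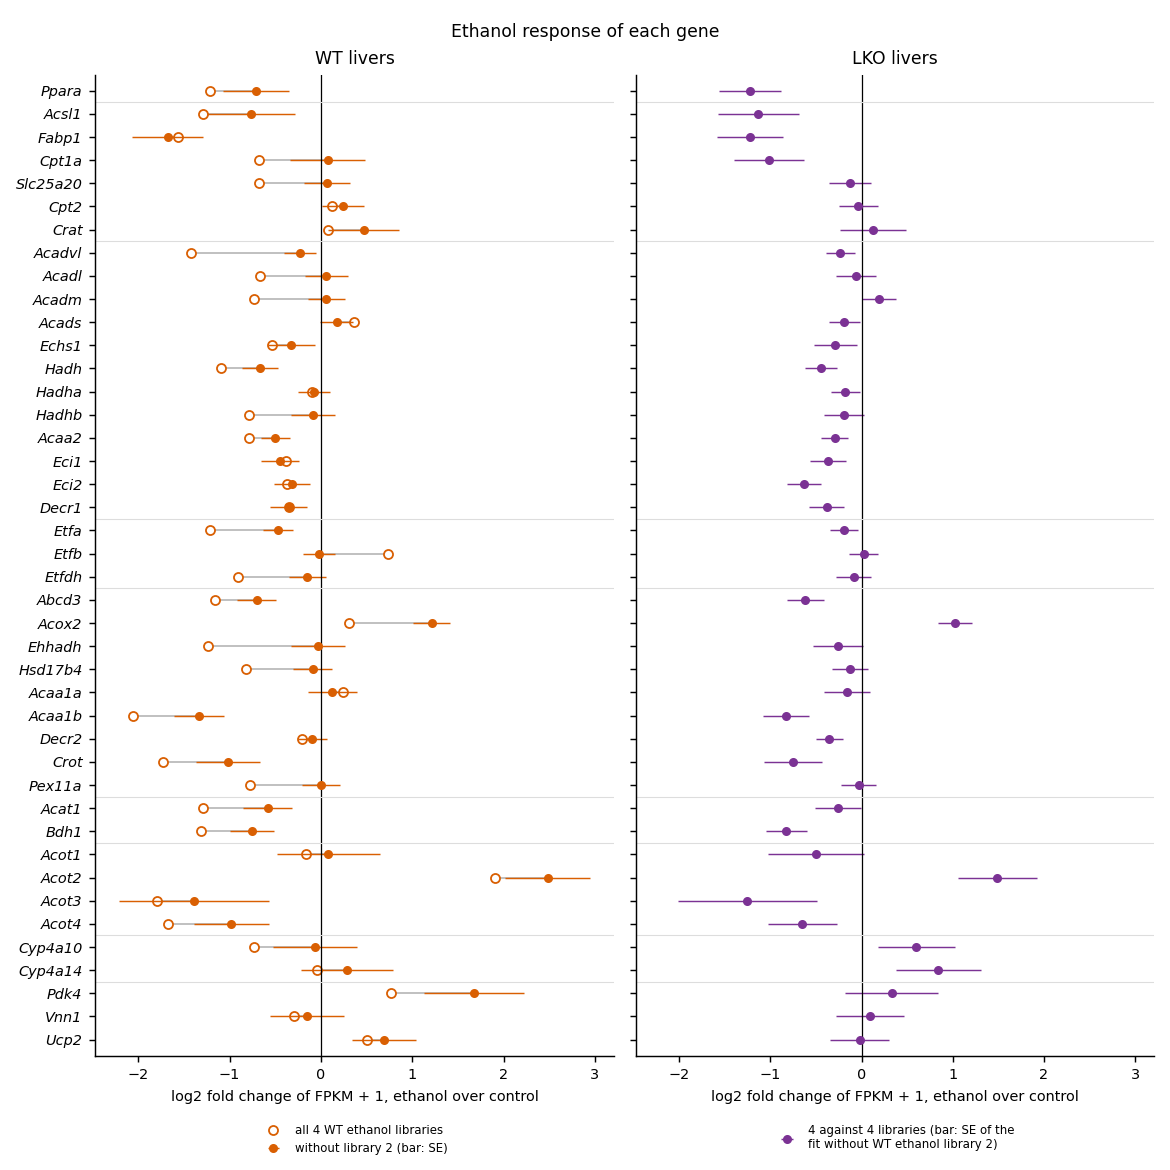
Log2 fold change of FPKM + 1 on ethanol over control diet for each of the 42 genes, in WT livers (left, open circles with all 4 ethanol libraries, filled circles without library 2) and in LKO livers (right). Bars are the SE of the fit without WT ethanol library 2, and the open circles in WT lie mostly to the left of the filled ones, with medians of -0.70 and -0.09.

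The summed FPKM of pericentral markers was lower on ethanol in WT, without overlap, and that of periportal markers overlapped between diets. A sum can be set by its most abundant markers, and levels of single markers are not given here. Pericentral hepatocyte markers (5 of 6 listed were measured) summed to 3095 to 5233 FPKM in WT control livers and to 1139 to 1491 FPKM in WT ethanol livers. In LKO they summed to 2991 to 5331 FPKM on the control diet and to 1149 to 3920 FPKM on ethanol. Periportal markers summed to 1189 to 2922 FPKM in WT control and to 1384 to 5158 FPKM in the 3 WT ethanol libraries other than library 2. In LKO they summed to 1606 to 4689.6 FPKM on the control diet and to 1493 to 4067 FPKM on ethanol.

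In bulk RNA, fewer cells of a type and less RNA per cell cannot be told apart. The part of the lower pericentral sum in the results below was not tested.

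Ppara, the receptor, was at 38.9, 37.6, 47.4 and 53.7 FPKM in the 4 WT control libraries and at 19.00, 5.92, 29.6 and 32.6 FPKM in WT ethanol libraries 1 to 4. It is encoded at chr15:85734983-85802819 on the plus strand. The WT groups did not overlap, with or without library 2. LKO livers had 27.2, 29.7, 49.9 and 32.5 FPKM on the control diet and 14.3, 9.25, 8.31 and 33.2 FPKM on ethanol. In LKO, 3 of the 4 ethanol libraries lay below every control library, and library 4 was within the control range. The log2 fold change over both genotypes was -1.22 (SE 0.32, adjusted p = 0.0294), and -0.97 (SE 0.25, adjusted p = 0.013) without WT ethanol library 2. In each genotype alone the change did not pass the test, at -1.21 (SE 0.46, adjusted p = 0.148) in WT and -1.22 (SE 0.46, adjusted p = 0.366) in LKO. The side-term fit called Ppara in LKO as well (-1.22, SE 0.29, adjusted p = 0.0182). On the side of libraries 1 and 2 it was -0.97 in WT from ethanol library 1 alone, -1.74 once library 2 was included, and -1.23 in LKO. On that of libraries 3 and 4 it was -0.68 and -1.21. These values all had the same sign. The call over both genotypes was lost when any of 8 single libraries was left out, namely WT control 1, 3 or 4, LKO control 2, 3 or 4, or LKO ethanol 2 or 3, with values from -1.41 to -0.97 over all leave-one-out fits and adjusted p of at most 0.0726. It was also lost with no filter on low values (adjusted p = 0.0767) and with scaling to equal sums of FPKM (adjusted p = 0.0640).

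Of the 6 genes of fatty acid binding, activation and the carnitine shuttle, only Fabp1 passed on ethanol in the fit with all libraries, in WT and over both genotypes. Fabp1 encodes the abundant cytosolic fatty acid-binding protein of hepatocytes. Its locus is chr6:71199827-71205023 on the plus strand. It was at 10114, 7802, 4961 and 6894 FPKM in WT control and 3376, 3109, 2165 and 1557 FPKM in WT ethanol. Every WT ethanol library lay below every WT control library, and library 2 was not apart from the other 3 for this gene. Values in LKO were 13714, 11632, 6071 and 7589 FPKM on the control diet and 7004, 4318, 2229 and 3687 FPKM on ethanol, where library 1 reached into the control range. The log2 fold change was -1.56 (SE 0.37, adjusted p = 0.0258) in WT, -1.22 (SE 0.37, adjusted p = 0.197) in LKO and -1.39 (SE 0.26, adjusted p = 0.00348) over both. Without WT ethanol library 2 it was -1.68 (SE 0.39, adjusted p = 0.0155) in WT and -1.45 (SE 0.26, adjusted p = 0.00179) over both. By side, WT ethanol library 1 alone gave -1.40, both WT ethanol libraries 1 and 2 gave -1.45, and LKO libraries 1 and 2 gave -1.20. Libraries 3 and 4 gave -1.67 in WT and -1.24 in LKO. All of these lay in 1 direction. The call in WT was lost without WT control library 1, 2 or 4 or WT ethanol library 3 or 4, at an adjusted p of at most 0.0925, and the value stayed between -1.74 and -1.35. With no filter on low values it was lost too (adjusted p = 0.116). In LKO Fabp1 passed in the side-term fit (-1.22, SE 0.21, adjusted p = 0.00409). The call over both genotypes held when each of the 16 libraries was left out.

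Fabp1 is shown with its promoter because among the 34 of the 42 genes with a promoter sequence it was the only one to hold an exact copy of the element that PPARα and its partner RXR bind. The element searched was AGGNCANAGGTCA, a direct repeat spaced by 1 base, on both strands of the 300 bases from 250 before to 50 after each RefSeq transcript start (GRCm38.p6). RefSeq promoters of these 34 genes came in 39 windows. An exact match was found in 1 of those 39 windows, and in 31 of all 32851 windows, or 0.0944%. The Fabp1 window lies on the plus strand at chr6:71199629-71199928, and capitals mark the match, which reads on the opposite strand at positions -67 to -55 from the start.
Fabp1: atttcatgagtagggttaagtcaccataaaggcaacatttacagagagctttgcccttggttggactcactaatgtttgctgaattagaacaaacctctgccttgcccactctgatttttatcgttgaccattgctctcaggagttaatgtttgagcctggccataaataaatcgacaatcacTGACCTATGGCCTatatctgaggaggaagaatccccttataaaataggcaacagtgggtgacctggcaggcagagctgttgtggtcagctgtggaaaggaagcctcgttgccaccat
With up to 1 mismatch allowed, 4 of the 39 windows matched, or 10.3%, against 449 of 32851, or 1.37%. Besides Fabp1 these were Etfa, Acot4 and Acox2, whose matches are shown in capitals with the bases around them, read 5′ to 3′ on the strand of the gene.
Etfa: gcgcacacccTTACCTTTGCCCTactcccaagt
Acot4: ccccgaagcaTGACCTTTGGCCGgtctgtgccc
Acox2: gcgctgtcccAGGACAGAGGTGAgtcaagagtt
Among these 4, Fabp1, Etfa and Acot4 were lower on ethanol and Acox2 higher in the fit over both genotypes without WT ethanol library 2. A match in these letters is a description of the window and shows no binding.

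The other 5 genes of this group did not pass in any contrast, with all libraries or without WT ethanol library 2. Acsl1, which activates long-chain fatty acids, had a log2 fold change over both genotypes of -1.21 (SE 0.39, adjusted p = 0.0653), and -0.95 (SE 0.33, adjusted p = 0.0509) without WT ethanol library 2. With that library kept, Acsl1 passed over both genotypes without WT ethanol library 3 (-1.43, adjusted p = 0.0265) and without LKO ethanol library 4 (-1.37, adjusted p = 0.0385). It also passed there with median of ratios (-1.28, adjusted p = 0.0230). Cpt1a, the rate-setting carnitine palmitoyltransferase of the outer mitochondrial membrane, ranged over 70.1 to 124 FPKM in WT control, 11.6 to 152 FPKM in WT ethanol, 77.2 to 154 FPKM in LKO control and 34.97 to 85.2 FPKM in LKO ethanol. All the groups overlapped, and its ethanol response without WT ethanol library 2 was 0.07 (SE 0.41, adjusted p = 0.932) in WT and -1.01 (SE 0.38, adjusted p = 0.157) in LKO. The difference between these responses did not pass the test (-1.08, SE 0.56, adjusted p = 0.968). Acsl1 and Cpt1a also differed most between libraries 1 and 2 and libraries 3 and 4, which were higher by 1.08 and 0.96 on the log2 scale without WT ethanol library 2, whereas Fabp1 had a difference of -0.83 between the same libraries. Cpt2, Slc25a20 and Crat, the later steps of the shuttle, had ethanol responses in WT between 0.07 and 0.47 without WT ethanol library 2, and between -0.13 and 0.12 in LKO. The side-term fit called Acsl1, lower, in WT (-0.95, SE 0.26, adjusted p = 0.0212), in LKO (-1.13, SE 0.24, adjusted p = 0.0107) and over both genotypes (-1.04, SE 0.17, adjusted p = 0.000765). It called Cpt1a, lower, in LKO (-1.01, SE 0.23, adjusted p = 0.0142) and over both genotypes (-0.54, SE 0.17, adjusted p = 0.023).

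In the mitochondrial spiral, none of the 12 genes passed in the fit with all libraries. The 4 acyl-CoA dehydrogenases and the subunits of the trifunctional protein had WT responses between -0.23 and 0.17 once WT ethanol library 2 was left out. The log2 fold change then was -0.23 for Acadvl, 0.06 for Acadl, 0.06 for Acadm, 0.17 for Acads, -0.07 for Hadha and -0.09 for Hadhb. With the library included, the values were -1.42, -0.67, -0.73, 0.36, -0.10 and -0.79 in the same order. The 95% interval of the Acadm response over both genotypes without the library ran from -0.16 to 0.41. Echs1, the hydratase of the second step, gave -0.31 (SE 0.17, adjusted p = 0.239) over both genotypes in that fit, and Eci1, the other isomerase for unsaturated chains, gave -0.41 (SE 0.14, adjusted p = 0.0541). Both were lower over both genotypes in the side-term fit, Echs1 at -0.26 (SE 0.09, adjusted p = 0.0372) and Eci1 at -0.43 (SE 0.11, adjusted p = 0.00772). In WT Eci1 passed there too (-0.50, SE 0.16, adjusted p = 0.0402).

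Without WT ethanol library 2, 3 of the 12 passed over both genotypes, Hadh, Acaa2 and Eci2, all lower, against 20.5% of all genes. Hadh, the dehydrogenase of the third step for medium and short chains, was at 120.4, 114, 134 and 112 FPKM in WT control and 61.8, 22.3, 83.3 and 82.4 FPKM in WT ethanol, with no overlap. The gene lies at chr3:131233419-131272101 on the minus strand. In LKO it was at 107, 103, 118 and 98.3 FPKM on the control diet and at 72.5, 60.8, 77.7 and 108 FPKM on ethanol, where library 4 overlapped the controls. Its log2 fold change in WT was -1.09 (SE 0.34, adjusted p = 0.0828) with all libraries and -0.67 (SE 0.19, adjusted p = 0.0415) without WT ethanol library 2. Over both genotypes without that library it was -0.55 (SE 0.13, adjusted p = 0.00856). Within libraries 1 and 2 the change was -0.91 in WT with ethanol library 1 alone, -1.63 with library 2 included, and -0.66 in LKO. Within libraries 3 and 4 it was -0.56 and -0.23. The direction was the same in all of these. The call in WT was lost when WT control library 3 was left out as well, an alternative chosen after seeing the data, at -0.61 (adjusted p = 0.0867).

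Acaa2, the mitochondrial thiolase that ends each round, was at 746, 734, 715 and 633 FPKM in WT control and 514, 222, 529.8 and 457 FPKM in WT ethanol. LKO livers had 738, 732, 638 and 622 FPKM on the control diet and 612, 570.2, 478 and 565 FPKM on ethanol. In both genotypes every ethanol library lay below every control library. The fold change was small and passed over both genotypes without WT ethanol library 2 (-0.40, SE 0.11, adjusted p = 0.0178), and not with it (-0.54, SE 0.19, adjusted p = 0.0924). On the side of libraries 1 and 2 it was -0.53 in WT from ethanol library 1 alone, -1.13 once library 2 was included, and -0.31 in LKO. On that of libraries 3 and 4 it was -0.45 and -0.28. These values all had the same sign. Acaa2 passed in WT alone in the side-term fit (-0.47, SE 0.12, adjusted p = 0.0129).

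Eci2, an isomerase that moves double bonds for oxidation of unsaturated chains, was at 137, 85.7, 122 and 123 FPKM in WT control and 94.9, 79.6, 90.5 and 91.6 FPKM in WT ethanol. It is encoded at chr13:34977748-35027096 on the minus strand. WT control library 2 lay within the ethanol range. Values in LKO were 94.6, 112, 93.5 and 86.2 FPKM on the control diet and 79.95, 66.3, 48.3 and 56.5 FPKM on ethanol, with no overlap. The change over both genotypes was -0.50 (SE 0.17, adjusted p = 0.076) with all libraries and -0.47 (SE 0.14, adjusted p = 0.0226) without WT ethanol library 2. By side, WT ethanol library 1 alone gave -0.19, both WT ethanol libraries 1 and 2 gave -0.31, and LKO libraries 1 and 2 gave -0.50. Libraries 3 and 4 gave -0.42 in WT and -0.77 in LKO. All of these lay in 1 direction. In LKO alone Eci2 passed in the side-term fit (-0.63, SE 0.16, adjusted p = 0.0248). Decr1, the reductase for unsaturated chains, did not overlap in WT either, with 69.1 to 71.1 FPKM on ethanol against 72.8 to 116 FPKM on the control diet, and did not pass in the fit without WT ethanol library 2, at -0.37 (SE 0.14, adjusted p = 0.0782) over both genotypes. It passed in the side-term fit (-0.34, SE 0.10, adjusted p = 0.0212).

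Of the electron transfer flavoprotein and its dehydrogenase, Etfa alone passed, in fits without WT ethanol library 2 and with array weights. The latter, which weight each library by its fit, called it lower over both genotypes with all libraries, against 25.9% of all genes. Etfa was at 308, 290.0, 307 and 226 FPKM in WT control and 223, 24.9, 207 and 179 FPKM in WT ethanol, with no overlap, and library 2 was the lowest value. Its locus is chr9:55454508-55512243 on the minus strand. In LKO it was at 264, 257, 243 and 217 FPKM on the control diet and 221, 214, 202 and 219 FPKM on ethanol, which overlapped. Its change over both genotypes was -0.70 (SE 0.35, adjusted p = 0.252) with all libraries and -0.33 (SE 0.11, adjusted p = 0.0456) without WT ethanol library 2. When WT control library 3 was left out as well, the value was -0.31 and the call was lost (adjusted p = 0.0813). Within libraries 1 and 2 the change was -0.42 in WT with ethanol library 1 alone, -1.98 with library 2 included, and -0.26 in LKO. Within libraries 3 and 4 it was -0.45 and -0.13. The direction was the same in all of these. In WT alone Etfa passed in the side-term fit (-0.45, SE 0.13, adjusted p = 0.0248). Etfb, which forms a complex with Etfa, had 0.00 (SE 0.12, adjusted p = 0.993) over both genotypes without that library. In WT it had 0.74 (SE 0.50, adjusted p = 0.44) with all libraries and -0.02 (SE 0.18, adjusted p = 0.958) without library 2. Etfdh, which passes the electrons on to the respiratory chain, gave -0.12 (SE 0.14, adjusted p = 0.601) over both genotypes without that library.

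Among the 9 peroxisomal genes, Acaa1b and Abcd3 fell on ethanol over both genotypes with all libraries. With WT ethanol library 2 left out, 4 of the 9 passed there, with Crot also lower and Acox2 higher. Acaa1b, one of a pair of peroxisomal thiolases, was at 531, 429, 902 and 512 FPKM in WT control and 155, 29.5, 329.6 and 224 FPKM in WT ethanol. The gene lies at chr9:119148023-119157093 on the minus strand. LKO livers had 625, 714, 735 and 849 FPKM on the control diet and 432, 328, 389.8 and 505 FPKM on ethanol. The diets did not overlap in either genotype. The log2 fold change was -2.06 (SE 0.52, adjusted p = 0.0338) in WT, -0.83 (SE 0.52, adjusted p = 0.722) in LKO and -1.44 (SE 0.37, adjusted p = 0.0231) over both. When WT ethanol library 2 was omitted, it was -1.33 (SE 0.28, adjusted p = 0.00943) in WT and -1.08 (SE 0.19, adjusted p = 0.00133) over both. On the side of libraries 1 and 2 it was -1.62 in WT from ethanol library 1 alone, -2.79 once library 2 was included, and -0.83 in LKO. On that of libraries 3 and 4 it was -1.32 and -0.83. These values all had the same sign. The call in WT was lost without any single WT control library, at an adjusted p of at most 0.0882, and that over both genotypes without LKO ethanol library 2, at 0.0546. With no filter on low values both calls were lost, at 0.0853 in WT and 0.0674 over both, and with equal sums of FPKM they were lost at 0.0629 and 0.05004. LKO alone passed for Acaa1b in the side-term fit (-0.83, SE 0.20, adjusted p = 0.0193).

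The other gene of the pair, Acaa1a, did not pass. It ranged over 44.4 to 68.7 FPKM in WT control and 37.5 to 87.1 FPKM in WT ethanol. Its change over both genotypes was 0.04 (SE 0.21, adjusted p = 0.941). The copies share 34.0% of the 50-base windows of the Acaa1a transcript, so reads from those stretches cannot be assigned with certainty, and the deposited values of both are uncertain to that extent.

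Abcd3, a transporter that brings fatty acyl-CoA into peroxisomes, was at 150.3, 194, 145 and 141 FPKM in WT control and 75.1, 26.6, 129 and 89.8 FPKM in WT ethanol. It is encoded at chr3:121758774-121815302 on the minus strand. Values in LKO were 147, 155, 173 and 162 FPKM on the control diet and 109.6, 78.5, 96.2 and 138 FPKM on ethanol. The diets did not overlap in either genotype. The change over both genotypes was -0.89 (SE 0.26, adjusted p = 0.0435), and -0.66 (SE 0.15, adjusted p = 0.00632) without WT ethanol library 2. By side, WT ethanol library 1 alone gave -1.17, both WT ethanol libraries 1 and 2 gave -1.90, and LKO libraries 1 and 2 gave -0.70. Libraries 3 and 4 gave -0.41 in WT and -0.53 in LKO. All of these lay in 1 direction. With all libraries the call was lost when any control library, or LKO ethanol library 1, 2 or 3, was left out, in 11 of the 16 leave-one-out fits, at an adjusted p of at most 0.0994 and values from -1.03 to -0.66. It was also lost with no filter on low values (adjusted p = 0.0834), with equal sums of FPKM (adjusted p = 0.105) and with limma-voom (adjusted p = 0.0507). The side-term fit called Abcd3 in WT (-0.73, SE 0.20, adjusted p = 0.0212) and in LKO (-0.62, SE 0.18, adjusted p = 0.0451).

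Acox2, the oxidase for branched-chain fatty acids and bile acid intermediates, went the other way in 7 of the 8 ethanol libraries. Its locus is chr14:8225511-8259353 on the minus strand. It was at 45.9, 55.2, 62.7 and 37.96 FPKM in WT control and 97.95, 8.56, 106 and 151 FPKM in WT ethanol, where library 2 lay below all other 15 libraries and the other 3 above every control. In LKO it was at 51.5, 42.1, 51.7 and 49.9 FPKM on the control diet and 92.02, 114, 99.7 and 96.5 FPKM on ethanol, with no overlap. With all libraries the change was 0.31 (SE 0.59, adjusted p = 0.809) in WT and 1.03 (SE 0.59, adjusted p = 0.665) in LKO. Without WT ethanol library 2 it was 1.21 (SE 0.20, adjusted p = 0.00308) in WT, 1.03 (SE 0.18, adjusted p = 0.00828) in LKO and 1.12 (SE 0.14, adjusted p = 0.000148) over both, the smallest adjusted p of the 42 genes in that contrast. Within libraries 1 and 2 the change was 0.95 in WT with ethanol library 1 alone, -0.74 with library 2 included, and 1.12 in LKO. Within libraries 3 and 4 it was 1.36 and 0.94. The direction was the same on both sides except in WT with library 2 included. With library 2 kept and WT ethanol library 4 left out, the value in WT was -0.12.

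Crot, which moves shortened acyl chains out of peroxisomes as carnitine esters, was at 216, 106, 263 and 109 FPKM in WT control and 59.8, 9.89, 116 and 69.96 FPKM in WT ethanol. The gene lies at chr5:8966033-8997324 on the minus strand. WT ethanol library 3 lay within the control range. LKO livers had 105, 143, 149 and 111 FPKM on the control diet and 104, 54.8, 54.6 and 97.2 FPKM on ethanol, just below the lowest control for the highest ethanol library. The change over both genotypes was -1.24 (SE 0.39, adjusted p = 0.0591), and -0.88 (SE 0.24, adjusted p = 0.0165) without WT ethanol library 2. On the side of libraries 1 and 2 it was -1.32 in WT from ethanol library 1 alone, -2.57 once library 2 was included, and -0.69 in LKO. On that of libraries 3 and 4 it was -0.90 and -0.81. These values all had the same sign. In WT alone Crot passed in the side-term fit (-1.04, SE 0.35, adjusted p = 0.0481). None of the remaining peroxisomal genes passed. Ehhadh, Hsd17b4, Decr2 and Pex11a, which cover the later peroxisomal steps and peroxisome division, had changes over both genotypes between -0.22 and -0.02 without that library.

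**Figure D3:**
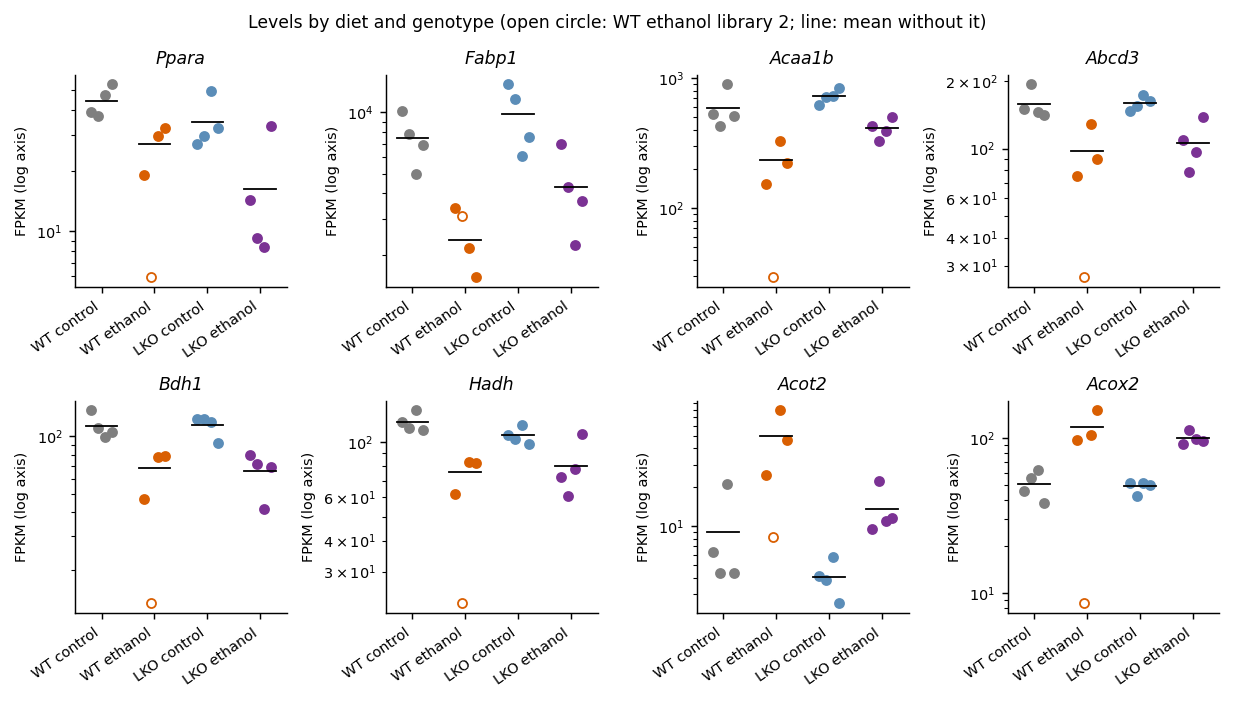
FPKM on log axes for 8 of the genes by group, 1 point per library, with the mean of each group without WT ethanol library 2 as a line and that library as an open circle. The ethanol points lie below the control points for Acaa1b and Abcd3 in both genotypes, and above them for Acot2 and Acox2 apart from the open circles.

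Of the ketone body genes, Bdh1 fell, and Acat1 passed in the side-term fit only. Bdh1 interconverts acetoacetate and 3-hydroxybutyrate in mitochondria. It is encoded at chr16:31422280-31458901 on the plus strand. It was at 137, 111, 99.8 and 106 FPKM in WT control and 46.8, 13.3, 78.5 and 79.4 FPKM in WT ethanol. Values in LKO were 124, 124, 119 and 92.2 FPKM on the control diet and 80.4, 71.3, 41.8 and 69.1 FPKM on ethanol. The diets did not overlap in either genotype. The change over both genotypes was -1.07 (SE 0.30, adjusted p = 0.0366), and -0.79 (SE 0.16, adjusted p = 0.00405) without WT ethanol library 2. By side, WT ethanol library 1 alone gave -1.37, both WT ethanol libraries 1 and 2 gave -2.24, and LKO libraries 1 and 2 gave -0.70. Libraries 3 and 4 gave -0.38 in WT and -0.95 in LKO. All of these lay in 1 direction. The call with all libraries was lost without any control library or without LKO ethanol library 2 or 3, in 10 of the 16 leave-one-out fits, at an adjusted p of at most 0.0817 and values from -1.20 to -0.79. It was also lost with no filter on low values (adjusted p = 0.0834) and with equal sums of FPKM (adjusted p = 0.0830). The side-term fit called Bdh1 in WT (-0.73, SE 0.23, adjusted p = 0.038) and in LKO (-0.83, SE 0.21, adjusted p = 0.024). Acat1, the mitochondrial acetoacetyl-CoA thiolase, had -0.77 (SE 0.36, adjusted p = 0.217) over both genotypes, and -0.42 (SE 0.18, adjusted p = 0.117) without WT ethanol library 2. In the side-term fit it was lower, at -0.38 (SE 0.12, adjusted p = 0.0291).

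Of the 4 thioesterases, which release free fatty acids from acyl-CoA, Acot2 rose, and Acot4 was lower in the fit without WT ethanol library 2. Acot2, the mitochondrial enzyme, was at 6.30, 4.37, 21.1 and 4.35 FPKM in WT control and 24.97, 8.24, 78.8 and 46.6 FPKM in WT ethanol. Its locus is chr12:83987861-83993873 on the plus strand. Its only overlap in WT came from control library 3 and ethanol library 2. In LKO it was at 4.14, 3.81, 5.79 and 2.53 FPKM on the control diet and 9.52, 22.3, 10.9 and 11.5 FPKM on ethanol, with no overlap. The change was 1.90 (SE 0.55, adjusted p = 0.0609) in WT, 1.49 (SE 0.55, adjusted p = 0.358) in LKO and 1.70 (SE 0.39, adjusted p = 0.0131) over both. With WT ethanol library 2 left out, it was 2.49 (SE 0.47, adjusted p = 0.00624) in WT and 1.99 (SE 0.32, adjusted p = 0.000741) over both, the largest change of the 42 genes on ethanol. Within libraries 1 and 2 the change was 2.05 in WT with ethanol library 1 alone, 1.31 with library 2 included, and 1.66 in LKO. Within libraries 3 and 4 it was 2.50 and 1.32. The direction was the same in all of these. The call over both genotypes held when each of the 16 libraries was left out, at an adjusted p of at most 0.0361. In WT alone Acot2 passed when only WT control library 3 was left out (2.38, SE 0.53, adjusted p = 0.0270), against 2.88% of all genes. In LKO alone it passed when WT ethanol library 2 and WT control library 3 were both left out of the fit, at 1.49 (adjusted p = 0.0240), and in the side-term fit (adjusted p = 0.0392).

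Acot1, the cytosolic enzyme, encoded like Acot2 on chromosome 12, gave -0.33 (SE 0.38, adjusted p = 0.678) over both genotypes. The copies share 23.7% of the 50-base windows of the Acot1 transcript, so part of the reads of each may belong to the other. Acot4, a peroxisomal thioesterase, was at 32.5, 24.3, 36.3 and 29.6 FPKM in WT control and 10.3, 1.35, 24.7 and 12.8 FPKM in WT ethanol. The gene lies at chr12:84038379-84048601 on the plus strand. LKO livers had 18.5, 22.1, 31.4 and 8.59 FPKM on the control diet and 11.4, 8.18, 7.30 and 23.4 FPKM on ethanol. WT ethanol library 3 lay within the control range, and the LKO groups overlapped. The change over both genotypes was -1.16 (SE 0.40, adjusted p = 0.0858), and it only just passed without WT ethanol library 2, at -0.82 (SE 0.28, adjusted p = 0.04997). When WT control library 3 was left out too the value was -0.77 and the call was lost (adjusted p = 0.0833). On the side of libraries 1 and 2 it was -1.37 in WT from ethanol library 1 alone, -2.50 once library 2 was included, and -0.99 in LKO. On that of libraries 3 and 4 it was -0.84 and -0.31. These values all had the same sign. Acot3 ranged from 6.70 to 105 FPKM over the 15 libraries other than WT ethanol library 2 and did not pass (-1.52, SE 0.55, adjusted p = 0.103). It passed, lower, without LKO control library 4 (-1.94, adjusted p = 0.0205), without LKO ethanol library 4 (-1.84, adjusted p = 0.0366) and with array weights (-1.69, adjusted p = 0.0487).

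The omega-hydroxylases Cyp4a10 and Cyp4a14, enzymes that start oxidation from the far end of a fatty acid and classic reporters of PPARα activity in rodent liver, did not pass on ethanol. Over both genotypes Cyp4a10 gave -0.07 (SE 0.42, adjusted p = 0.952) and Cyp4a14 0.40 (SE 0.36, adjusted p = 0.579). When WT ethanol library 2 was omitted, the 95% interval ran from -0.39 to 0.93 for Cyp4a10 and from -0.17 to 1.29 for Cyp4a14, so changes of 1 unit upward lie inside the second. Cyp4a10 shares 25% of its 50-base windows with Cyp4a32 and 15.3% with Cyp4a31, and none with Cyp4a14. Vnn1 and Ucp2 gave -0.10 (SE 0.28, adjusted p = 0.882) and 0.24 (SE 0.25, adjusted p = 0.638) over both genotypes. With array weights Ucp2 passed, higher, in WT (1.22, adjusted p = 0.0335) and over both genotypes (0.64, adjusted p = 0.0425).

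Groups that did not overlap were counted beside the test. On ethanol in WT, 9 of the 42 genes had all ethanol libraries below all control libraries and none had all above, against 10.1% of all genes in either direction. Omitting WT ethanol library 2 gave 11, the same 9 with Acot2 and Acox2 higher, against 20.7% of all genes. In LKO, 9 did not overlap, 7 lower and 2 higher, against 12.3%. Acaa2, Abcd3, Acaa1b and Bdh1 were lower without overlap in both genotypes with all libraries, or 9.52% of the 42, against 1.30% of all genes. None of the 42 was higher in that way, against 1.83%.

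Between genotypes, none of the 42 genes passed on either diet in the fit with all libraries. On the control diet 0 of 42 passed, against 0.00885% of all genes, which was 1 gene. LKO and WT on ethanol differed for 0 of 42, against 0.0797% of all genes, and over both diets for 0, against 0.142%. At an unadjusted p under 0.05 there were 1, 4 and 6 of the 42 in these contrasts, or 2.38%, 9.52% and 14.3%, against 3.45%, 11.9% and 10.4% of all genes. In the fit without WT ethanol library 2 there were 3, 8 and 11, or 7.14%, 19.05% and 26.2%, against 9.603%, 17.1% and 22.7%. The limma-voom fit called 0 in each of these. Without WT ethanol library 2 the counts were 0 on the control diet against 0.0443% of all genes, 0 on the ethanol diet against 0.221%, and 1 over both diets against 1.07%, which was Pdk4. The side-term fit called 0 on the control diet against 0.0797% of all genes, Pdk4 and Acaa1b on ethanol against 1.58%, and 7 over both diets against 11.1%. The comparisons by genotype and by diet share groups.

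Pdk4, the kinase that switches off pyruvate dehydrogenase when fat is burned, was at 4.23, 1.73, 21.7 and 2.37 FPKM in WT control and 1.68, 1.62, 2.24 and 1.10 FPKM in LKO control. It is encoded at chr6:5483351-5496309 on the minus strand. On ethanol it was at 27.8, 0.493, 19.3 and 9.62 FPKM in WT and 2.09, 4.38, 1.28 and 2.14 FPKM in LKO. No LKO library was above 4.38 FPKM, while 4 WT libraries, control library 3 and ethanol libraries 1, 3 and 4, were at 9.62 FPKM or more. With all libraries the change over both diets was -1.35 (SE 0.52, adjusted p = 0.375). With WT ethanol library 2 left out, the library with the lowest Pdk4, it was -1.80 (SE 0.38, adjusted p = 0.0391), and on the ethanol diet alone -2.48 (SE 0.55, adjusted p = 0.0935). With WT control library 3 left out as well it was -1.47 over both diets (adjusted p = 0.0199), and on the ethanol diet -2.48 (adjusted p = 0.0178), with 3 libraries in each WT group. That fit was chosen after seeing the data, Pdk4 values included. Within libraries 1 and 2 the genotype difference was -0.51 on the control diet and -2.82 on ethanol, the latter against WT ethanol library 1 alone and -0.69 with library 2 included. Within libraries 3 and 4 it was -1.74 and -2.46. Pdk4 passed in the side-term fit on the ethanol diet (-2.48, SE 0.57, adjusted p = 0.0479) and over both diets (-1.80, SE 0.39, adjusted p = 0.0198). The Pdk4 value in WT ethanol library 2 rests on 17 reads.

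By diet, Pdk4 did not pass in WT with all libraries or without WT ethanol library 2. The WT ethanol response was 0.77 (SE 0.73, adjusted p = 0.6) with all libraries and 1.68 (SE 0.55, adjusted p = 0.0672) without ethanol library 2. WT ethanol library 2 holds the lowest ethanol value of Pdk4 in WT and control library 3 the highest control value. Leaving out control library 3 as well, a choice made after seeing the data, moved the value to 2.34, which passed in that fit, against 7.89% of all genes. Pdk4 also passed there over both genotypes, higher, against 18.5%. The library left out was the highest control value of Pdk4, so these calls are not separate support. In LKO the ethanol response of Pdk4 was 0.33 (SE 0.51, adjusted p = 0.803). The difference between the genotypes did not pass the test (-1.35, SE 0.75, adjusted p = 0.968), so the response was not shown to differ between them.

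Some other PPARα targets had lower values in LKO that did not pass with all libraries or without WT ethanol library 2. Cyp4a14 ranged over 323 to 1138 FPKM in WT control and 86.5 to 279 FPKM in LKO control, the only one of the 42 genes without overlap between genotypes on the control diet, against 9.25% of all genes. On ethanol it ranged over 251 to 704 FPKM in WT and 139 to 463 FPKM in LKO. Its genotype difference over both diets was -1.07 (SE 0.36, adjusted p = 0.324), and -1.23 (SE 0.34, adjusted p = 0.0841) without WT ethanol library 2. On the ethanol diet Acot1 alone did not overlap with all libraries, lower in LKO, against 2.69% of all genes. When WT ethanol library 2 was omitted, there were 6 such genes, all lower in LKO (Eci2, Pex11a, Acot1, Acot2, Cyp4a14 and Pdk4), against 7.03%. Over both diets without that library, Acot1 gave -1.34 (SE 0.38, adjusted p = 0.0914) and Acot2 -1.24 (SE 0.32, adjusted p = 0.0682). Acaa1b lay in the other direction, at 0.60 (SE 0.19, adjusted p = 0.108).

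In the side-term fit over both diets, Cyp4a14 (-1.24, SE 0.35, adjusted p = 0.0414), Acot1 (-1.30, SE 0.38, adjusted p = 0.0455), Acot2 (-1.21, SE 0.31, adjusted p = 0.0319) and Eci2 (-0.43, SE 0.12, adjusted p = 0.0397) were lower in LKO. Acaa1b (0.64, SE 0.15, adjusted p = 0.0234) and Fabp1 (0.52, SE 0.15, adjusted p = 0.0454) were higher. Of all genes, 1.43% were called higher and 9.68% lower in that fit. On ethanol alone Acaa1b was higher too (0.93, SE 0.22, adjusted p = 0.0479). With all libraries and array weights, which weight each library by its fit, Pdk4 (-1.51, adjusted p = 0.0273), Acot2 (-1.19, adjusted p = 0.0241) and Acaa1b (0.72, adjusted p = 0.0251) passed over both diets, against 14.0% of all genes.

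**Figure D4:**
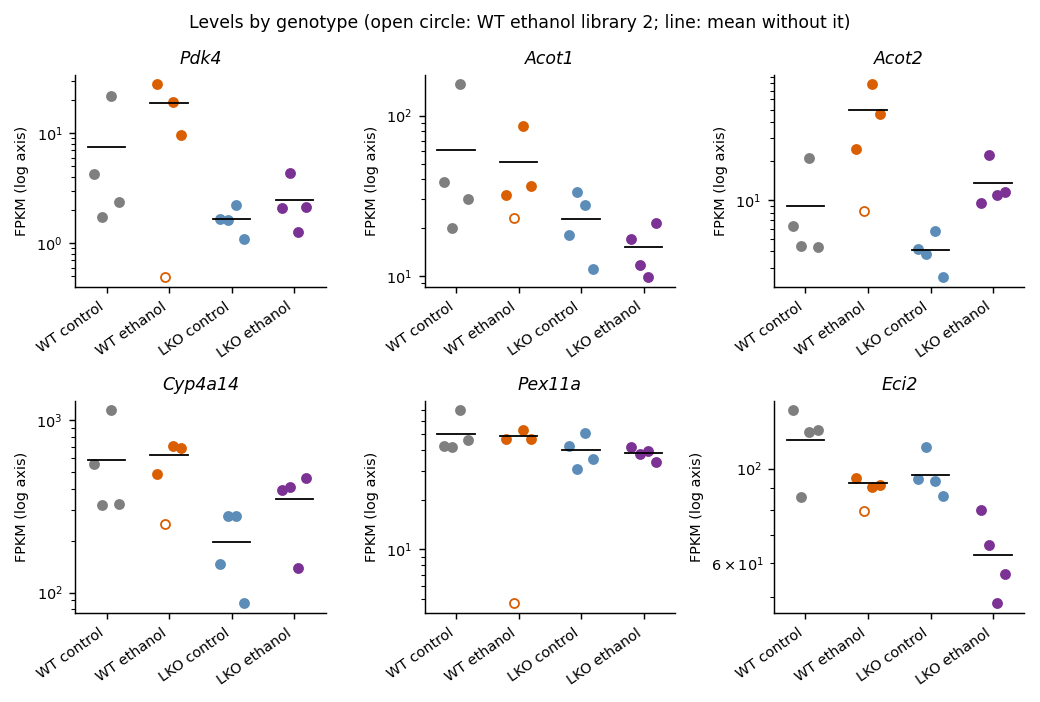
FPKM on log axes for the 6 genes whose LKO ethanol libraries all lay below the 3 WT ethanol libraries other than library 2 (open circle), 1 point per library with group means as lines. Pdk4 in LKO stays at or below 4.38 FPKM on both diets, and WT control library 3 is the highest control point for Pdk4, Acot1, Acot2, Cyp4a14 and Pex11a.

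The ethanol response of the 42 genes was not shown to differ between genotypes. In the interaction, 0 of 42 passed and 0 had an unadjusted p under 0.05, with and without WT ethanol library 2, and 0.00% of all genes were called in either fit. Of all genes, 3.20% with all libraries and 4.42% without that library had an unadjusted p under 0.05. The limma-voom fit called 0 as well. The widest estimates without that library were those of Pdk4 at -1.35 (SE 0.75, adjusted p = 0.968), Cpt1a at -1.08 (SE 0.56, adjusted p = 0.968) and Acot2 at -0.996 (SE 0.63, adjusted p = 0.968). With SEs of this size, genotype differences in response of 1 log2 unit were not detectable for these genes. For Acadvl the 95% interval ran from -0.50 to 0.49.

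Of 56 other genes of the pathway, including partners of PPARα, lipid uptake and droplet genes and further peroxisomal and ketone body genes, 52 were expressed enough to test. On ethanol in WT, 3 of 52 passed, against 4.18% of all genes: Cidec, a lipid droplet protein, was higher (3.20, SE 0.73, adjusted p = 0.0213), and Aacs and Acat2, cytosolic enzymes that use acetoacetate or make acetoacetyl-CoA, were lower, at -2.18 (SE 0.42, adjusted p = 0.0107) and -1.17 (SE 0.29, adjusted p = 0.0316). Without WT ethanol library 2, 8 passed, 3 higher and 5 lower, against 9.48%. Over both genotypes 5 passed with all libraries, against 7.78%, and 15 without that library, against 20.5%. The median of the 52 was -0.31 in WT and -0.14 in LKO, against -0.02 and 0.06 for all genes tested. Leaving out WT ethanol library 2 made the WT median -0.03 for the 52 and 0.17 for all genes. In LKO 0 passed with all libraries, where 8 had an unadjusted p under 0.05, or 15.4% against 9.19% of all genes, and 15 or 28.8% against 19.0% without WT ethanol library 2. In LKO 3 passed without WT ethanol library 2, against 3.62%, among them Slc16a1, a transporter that carries ketone bodies across the cell membrane, higher (1.42, SE 0.24, adjusted p = 0.00594), and Sirt3, a mitochondrial deacetylase, lower (-0.89, SE 0.19, adjusted p = 0.0191). Between genotypes over both diets 0 passed, with 10 at an unadjusted p under 0.05, or 19.2% against 10.4% of all genes, and 18 or 34.6% against 22.7% without WT ethanol library 2. Without that library 2 passed, against 1.07%, both lower in LKO: the PPARα target Angptl4 (-0.72, SE 0.16, adjusted p = 0.0494) and the carnitine transporter Slc22a5 (-0.69, SE 0.16, adjusted p = 0.0494).

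Because Zfp36l1 protein binds AU-rich sequence, the 3′ untranslated regions of the 42 genes were searched for TATTTAT on the transcript strand (GENCODE M21, GRCm38). It was present in 5 of the 42, or 11.9%, against 2859 of 10560 tested genes with a coding transcript, or 27.1%. Median region lengths were 748.5 and 954 bases. The sites are shown because Pdk4, the 1 gene of the 42 called between genotypes in the fit without WT ethanol library 2, was among these 5, each as the match in capitals with 8 bases on either side, 5′ to 3′.
Pdk4: ttccctatTATTTATgaacccat
Cpt1a: aaatcatgTATTTATtttccagt
Cpt2: ctcagctgTATTTATtgtttaaa
Vnn1: ctattaagTATTTATctcaacat
Acot4: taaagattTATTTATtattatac
The Pdk4 site is at chr6:5483498-5483504 on the minus strand, 1945 bases into a region of 2098 bases. None of the 5 genes was called higher in LKO in any fit shown here. A match is a sequence description, and no binding was measured.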

How the data were processed

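Total RNA of mouse liver was sequenced in 16 standard Illumina libraries, per the labels' protocols. The authors deposited 1 table of FPKM values, and the submitters' processing notes name fastp, STAR 2.6.1, HTSeq and DESeq2, and the build mm10, without role or order. Gene symbols and positions came from GENCODE M21 (GRCm38) by gene ID, and promoters from RefSeq (GRCm38.p6). Strandedness of the counting is not given in the sources used here, so overlapping or antisense genes may share reads. FPKM values were whole multiples of 1 read for each gene and library (100% of values within 0.1 of a whole read), which gave total reads per library and the whole reads for limma-voom.

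Genes with at least 1 FPKM in at least 4 of 16 libraries were kept, which left 11298 genes and all 42 described here. Differences were fitted on log2(FPKM + 1), which understates changes of low genes, with limma 3.58.1 in R 4.3.3 (group means, lmFit, eBayes with trend). Tests were two-sided, with Benjamini-Hochberg adjustment over all genes kept and a threshold of 0.05. There were 7 contrasts. All 42 genes could be named, and values per library were given for Ppara and for those called with all libraries or without WT ethanol library 2. Of the other pathway genes, at most the 4 with the smallest adjusted p in a contrast could be named. The genes, lists and roles were chosen with earlier results of these data known. Settings were varied 1 at a time, except that the term for the side and the removal of WT control library 3 were each joined to the removal of WT ethanol library 2, and the procedure was tested on simulated data. The labels carry no replicate numbers (titles hold 1 identifier per library), so libraries were numbered 1 to 4 within a group in record order.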

Additional observations from a re-analysis of the deposited data

Results flagged for a closer look

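Within each group of 4 libraries, each of the 42 genes was checked for a single library whose gap to the nearest other exceeded the 95% critical value of Dixon's test for 4 samples. Of 168 sets of 4 values, 12 met it, or 7.14%, where chance flags about 1 in 20. WT control library 3 gave 5 of these as the highest of its group: Hsd17b4 at 177 FPKM against 136 to 142 in the other 3, Pex11a at 69.9 against 41.6 to 46.4, Acot1 at 157 against 19.9 to 38.6, Acot2 at 21.1 against 4.35 to 6.30 and Pdk4 at 21.7 against 1.73 to 4.23. WT ethanol library 2 gave 3: Etfb was highest at 3296 FPKM against 389 to 436, Hadhb lowest at 7.47 against 55.0 to 63.5, and Pex11a lowest at 4.69 against 46.8 to 53.4. In LKO, Eci1 stood high in ethanol library 4 at 118 FPKM against 87.9 to 90.8. Acot2 was high in LKO ethanol library 2 at 22.3 FPKM against 9.52 to 11.5. Ucp2 was high in LKO control library 3 at 14.6 FPKM against 7.56 to 8.60, and Bdh1 low in LKO control library 4 at 92.2 FPKM against 119 to 124.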

How the results depend on the processing

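Counts of the 42 genes called depended on the libraries and the scaling, and shares of all genes called in the same setting are given in brackets. On ethanol in WT the count was 2 with all libraries (4.18%), 0 with no filter on low values (1.16%), 7 after quantile normalization (8.25%), 9 with median of ratios (6.48%), 1 with equal sums of FPKM (2.24%), 7 with array weights (15.3%), and 0 to 5 when single libraries were left out (1.29% to 9.48%). Over both genotypes the ethanol count was 6 (7.78%), against 2 with no filter (2.63%), 12 with median of ratios (11.7%), 2 with equal sums (4.73%), 15 with array weights (25.9%) and 2 to 13 when single libraries were left out (4.59% to 20.5%). In LKO it was 8 with array weights (9.89%) and 0 to 1 when single libraries were left out (0.0531% to 3.62%). For LKO against WT over both diets it was 3 with array weights (14.0%) and 0 to 1 in the same way (0.0708% to 1.07%). Without WT ethanol library 2 and with a term for the side of the first component, the counts were 12 in WT (19.7%), 10 in LKO (10.7%), 19 over both genotypes (32.6%), 2 for LKO against WT on ethanol (1.58%) and 7 over both diets (11.1%). Leaving out WT control library 3 as well as WT ethanol library 2, an alternative chosen after seeing the data, gave 5 in WT (7.89%), 2 in LKO (3.45%), 12 over both genotypes (18.5%), 1 for LKO against WT on ethanol (0.274%) and 1 over both diets (0.283%). Array weights gave WT ethanol library 2 a weight of 0.0502. With no filter, more genes were tested (24377). The cause of the other moves was not tested. The counts for LKO against WT on the control diet and for the interaction were 0 in every setting run. Of 500 settings of single-gene results, 386 kept direction and side of the threshold, 51 lost a call, 62 gained one and 1 reversed. The 386 include results not called with all libraries that stayed not called. The reversal was Acox2 on ethanol in WT, at 0.31 with all libraries and -0.12 without WT ethanol library 4. Its value was at most 1.21 when other single libraries were left out. The Zfp36l1 difference kept its call in every setting run. Depth limits low values most in WT ethanol library 2. No paired analysis was run, because the labels give no replicate numbers. Titles hold a different identifier for each library; some run on from a control to an ethanol library, and no label says that these are pairs.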
